A study of Mus musculus with 6 samples.

Results

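The genes described are the constitutive subunits and regulators of the mouse proteasome. They were chosen by symbol: every gene of the table whose symbol starts with Psma, Psmb, Psmc, Psmd, Psme, Psmf or Psmg, without the immunoproteasome genes Psmb8, Psmb9, Psmb10 and Psme1. Psme2, which forms the interferon-inducible PA28 ring with Psme1, was kept. The rule found 45 of 23224 genes and used no measured value. By role they were 7 subunits of the alpha ring and 7 of the beta ring of the 20S core, 9 subunits of the base and 8 of the lid of the 19S cap, 4 activators or inhibitors, 7 assembly chaperones and 3 others. The others were Psma8, an alpha subunit known from testis, Psmb11, a catalytic subunit known from thymic cortical epithelium, and Psmc3ip. The product of Psmc3ip is a cofactor of meiotic recombinases and no proteasome subunit, so its symbol fits the rule and its function does not.

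The proteasome degrades proteins tagged with ubiquitin. The 19S cap recognises, unfolds and feeds in the substrate, the alpha rings of the 20S core form a gated entrance, and the beta rings hold the proteolytic sites of Psmb5, Psmb6 and Psmb7. In dendritic cells (DC) and in cells exposed to interferon, Psmb8, Psmb9 and Psmb10 can take the places of Psmb5, Psmb6 and Psmb7, which alters the peptides made for MHC class I presentation. The transcription factor Nfe2l1 drives proteasome genes when proteasome activity is short, through antioxidant response elements.

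DC were sorted live by FACS from MC57-SIY tumors grown under the skin of C57BL/6 mice for 7 days, and bulk RNA was sequenced. MC57 is a mouse fibrosarcoma line, here with the model antigen SIY, and mice without Rag2 cannot form mature T or B cells. Libraries, 2 a group in 3 groups, came from CD103+ DC1 from Rag2-/- hosts (replicates 2 and 3), ISG+ DC from Rag2-/- hosts (replicates 2 and 3) and ISG+ DC from WT hosts (replicates 1 and 2). Tumors were pooled, the labels report duplicate independent experiments, and the sources used here give neither the age of the mice nor the sort gate of the ISG+ DC. The comparison of populations sets ISG+ DC against CD103+ DC1 within Rag2-/- hosts, and the comparison of hosts sets ISG+ DC of WT against those of Rag2-/- hosts. Both share the Rag2-/- ISG+ DC libraries. With 2 libraries a group, p-values measure the spread between these libraries only. In sorted bulk samples, fewer cells of a type and less RNA per cell cannot be told apart.

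Libraries held 6023510 to 15368616 estimated counts and 12323 to 14051 genes with a count. CD103+ DC1 replicate 3 was the shallowest. DC1 markers summed to 7792 and 4355 CPM (counts scaled to a common library total with TMM factors) in the CD103+ DC1 libraries and to 589 to 1063 CPM in the ISG+ DC libraries. Most of the sum in every library was Wdfy4 (4604 and 2198 CPM in CD103+ DC1) and Irf8 (1668 and 723 CPM). Xcr1, Clec9a and Itgae lay at 231 to 423 CPM in CD103+ DC1 and at 0.299 to 22 CPM in ISG+ DC. Of the 8 markers, 7 were called lower in ISG+ DC between populations. CD11b+ cDC2 markers summed to 122 and 146 CPM in CD103+ DC1 and to 2395 to 3170 CPM in ISG+ DC. Macrophage and monocyte markers summed to 474 and 631 CPM in CD103+ DC1, 2078 and 2830 CPM in Rag2-/- ISG+ DC, and 5773 and 5275 CPM in WT ISG+ DC. Apoe alone was at 203 and 281 CPM in Rag2-/- ISG+ DC and 2032 and 1656 CPM in WT ISG+ DC, and was the only 1 of 10 called between hosts. Log2 fold changes between hosts were under 0 for Fcgr1 (-0.32), Ly6c2 (-1.49) and Ccr2 (-0.04) and above 0 for the rest. T, B and NK cell markers summed to at most 36.3, 4.47 and 3.72 CPM, respectively. Neutrophil markers summed to 8.05 and 4.11 CPM in CD103+ DC1, 22.5 and 12.3 CPM in Rag2-/- ISG+ DC, and 131 and 134 CPM in WT ISG+ DC. Nearly all of the WT sum was Csf3r, at 126 and 134 CPM, which rose between hosts by 2.90 on the log2 scale (edgeR adjusted p = 0.035), while S100a8 was at 0 in every library. Fibroblast and fibrosarcoma matrix genes summed to 1047 and 425 CPM, 1051 and 634 CPM, and 417 and 48.9 CPM in the same order of groups. Their median log2 fold change between hosts was -2.47, with 0 of 6 called. The part of the macrophage, neutrophil and matrix markers in the differences below was not tested. Rag2 had 39, 11, 40 and 2 counts in the 4 libraries from hosts labelled Rag2-/- and 0 in both WT libraries. The deleted part of the gene is not stated in the labels, so whether these counts go against the genotype cannot be told, and every host direction below rests on the labels.

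Promoter sequences are shown for 4 of the members that carry, within 250 bases before the gene start, a motif of a regulator known for this gene family or for interferon responses. The other members with a motif are named below without their sequence. RefSeq windows (GRCm38.p6) of 250 bases before the gene start were found for 37 of the 45 members. None was matched for Psma8, Psmb1, Psmb2, Psmb7, Psmc3, Psmd3, Psmd7 and Psmg2. Letters in capitals mark the motif, given on the strand of the gene. Psmb5 (chr14:54617996-54618245, minus strand) and Psmb6 (chr11:70525107-70525356, plus strand), genes of the constitutive catalytic subunits, hold the antioxidant response element TGACNNNGC, which begins 47 and 9 bases before the start.
Psmb5: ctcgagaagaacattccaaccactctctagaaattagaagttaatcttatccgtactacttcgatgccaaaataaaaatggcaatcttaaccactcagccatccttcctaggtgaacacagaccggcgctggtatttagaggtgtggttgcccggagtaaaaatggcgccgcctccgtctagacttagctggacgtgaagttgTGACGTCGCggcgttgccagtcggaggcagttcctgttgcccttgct
Psmb6: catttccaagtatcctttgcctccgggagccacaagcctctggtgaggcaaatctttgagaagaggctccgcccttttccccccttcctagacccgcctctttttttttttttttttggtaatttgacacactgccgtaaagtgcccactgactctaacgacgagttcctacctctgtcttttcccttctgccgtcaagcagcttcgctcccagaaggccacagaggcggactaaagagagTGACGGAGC
Psmb3 (chr11:97703184-97703433, plus strand), a gene of a beta subunit without a catalytic site, and Psmd4 (chr3:95042615-95042864, minus strand), a gene of a ubiquitin receptor of the cap, hold the core of the interferon-stimulated response element, which is GAAA, any 2 bases and GAAA. Here it lies on the opposite strand and begins 163 and 80 bases before the start.
Psmb3: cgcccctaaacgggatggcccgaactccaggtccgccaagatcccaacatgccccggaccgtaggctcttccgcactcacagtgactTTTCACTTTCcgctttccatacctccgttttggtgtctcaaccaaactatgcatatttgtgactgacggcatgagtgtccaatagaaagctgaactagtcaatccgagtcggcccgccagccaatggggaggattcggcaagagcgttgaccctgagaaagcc
Psmd4: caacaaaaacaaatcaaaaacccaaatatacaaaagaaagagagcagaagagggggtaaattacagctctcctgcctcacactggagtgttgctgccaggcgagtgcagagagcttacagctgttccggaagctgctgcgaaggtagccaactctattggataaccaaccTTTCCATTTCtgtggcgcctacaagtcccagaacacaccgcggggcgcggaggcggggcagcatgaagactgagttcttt
Both strands were searched. The antioxidant motif was in the windows of 5 of 37 members (13.5%: Psmb5, Psmb6, Psmc6, Psmd9 and Psmd12) and of 11.5% of 27025 genes. The interferon-stimulated motif was in 3 of 37 (8.11%: Psmb3, Psmd4 and Psmd9) and in 3.46% of all, and the gamma-activated site TTCNNNGAA in 1 of 37 (2.7%: Psmg1) and in 8.13% of all. A match is a description of letters, not a binding site.

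Of the 45 members, 44 had enough counts to be tested. Psma8 had 29 counts (2.11 CPM) in Rag2-/- ISG+ DC replicate 3 and 0 in the other 5 libraries, where a count of 0 allows up to 0.189 to 0.514 CPM. Together, the members of the 6 working roles summed to 3383 and 4623 CPM in CD103+ DC1, 2967 and 3409 CPM in Rag2-/- ISG+ DC, and 2897 and 2928 CPM in WT ISG+ DC. All members took 0.355% and 0.451%, 0.308% and 0.346%, and 0.284% and 0.282% of the estimated counts of those libraries. Proliferation genes, which go with cell division, summed to 2614 and 3419 CPM, 1061 and 1108 CPM, and 469 and 388 CPM in the same order; their part in the levels of the members was not tested.

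**Figure D1:**
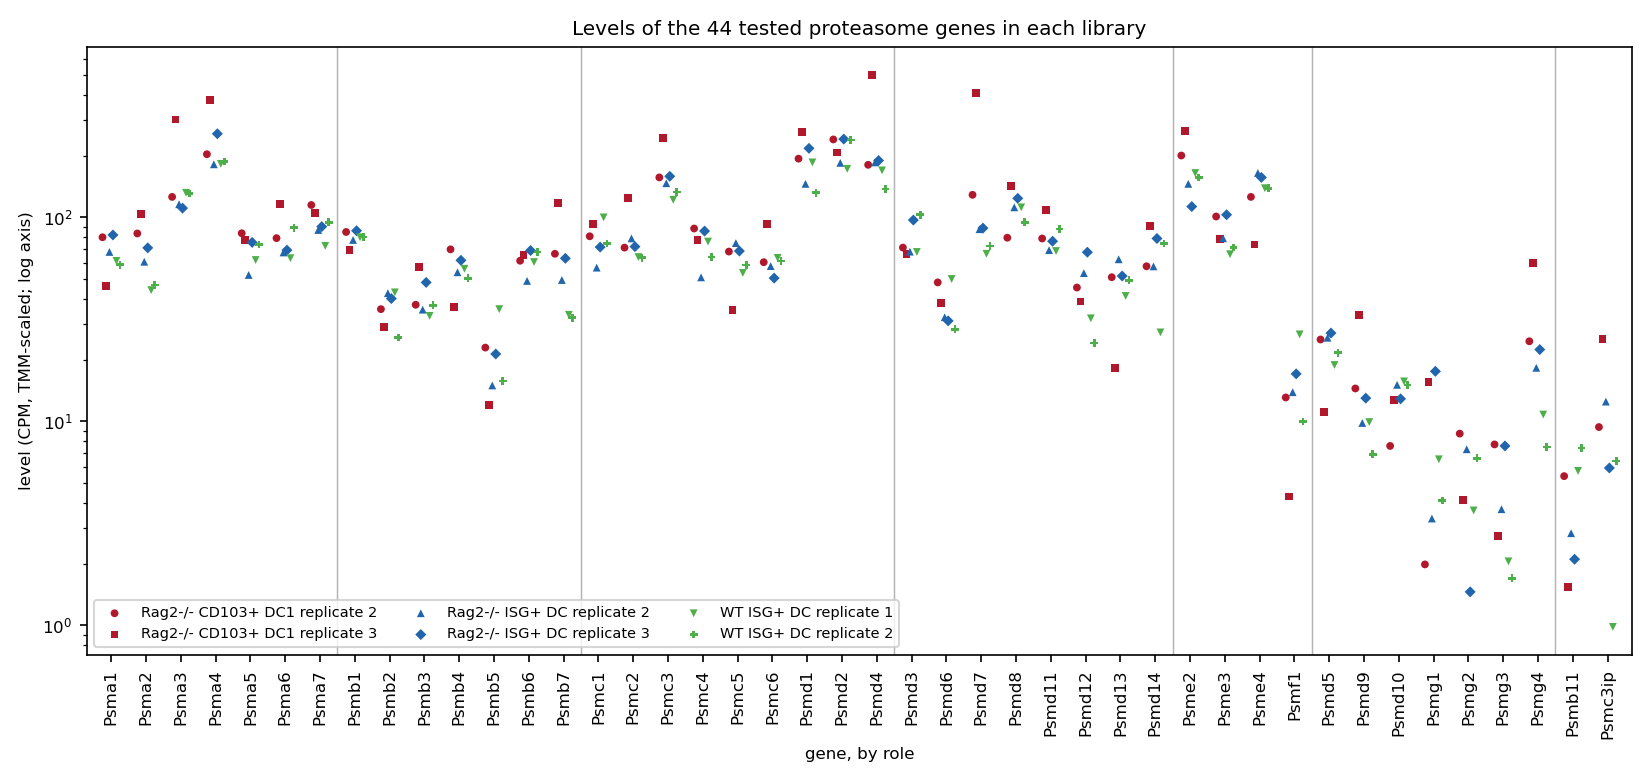
Level of each of the 44 tested members in each of the 6 libraries (CPM, TMM-scaled, log axis), in role groups, with a colour for each of the 3 groups and no error bars, since single libraries are drawn. Psmd4, at 501 CPM in CD103+ DC1 replicate 3, is the highest value, and the assembly chaperones, Psmf1, Psmb11 and Psmc3ip lie under most subunits of the core and cap.

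Across the 6 libraries the members were steadier than the table as a whole. The highest level of a member was a median of 2.07 times its lowest, against 3.41 times over the 10318 tested genes with a count in all 6 libraries, and 20 of 44 stayed within a 2-fold range (45.5%, against 19.6% of those genes). Their median mean level was higher, 65.1 CPM against 20 CPM over all 13223 tested genes, so the comparison is not at matched level. Psmb1, a beta subunit, varied least, at 84.8 and 69.2 CPM in CD103+ DC1, 77.5 and 86.0 CPM in Rag2-/- ISG+ DC and 79.9 and 80.2 CPM in WT ISG+ DC. The members differed between the CD103+ DC1 replicates by a median of 1.69-fold, against 1.64-fold over all tested genes with counts in both. In Rag2-/- ISG+ DC the medians were 1.23-fold and 1.39-fold, and in WT ISG+ DC 1.19-fold and 1.39-fold, so the wider spread in CD103+ DC1 was shared by genes outside the members. CD103+ DC1 replicate 3 gave the highest of the 6 values in 19 of 44 members (43.2%, against 24.5% of all genes) and the lowest in 11 (25%, against 26.2%).

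Between populations no member passed the edgeR quasi-likelihood test at an adjusted p under 0.05, while 488 of 13223 genes did (3.69%). The members' median log2 fold change, ISG+ DC against CD103+ DC1, was -0.30, against -0.02 over all genes, with 27 of 44 under 0 (61.4%, against 50.7%). The range ran from -1.61 in Psmd7 to 0.82 in Psmf1. At an unadjusted p under 0.05 there were 3 members, Psma3, Psmd7 and Psme2 (6.82%), where 14.9% of all genes were found. DESeq2 called 2 members, Psmd7 and Psme2, both lower in ISG+ DC (4.55%, against 8.56% of genes), and 4 at an unadjusted p under 0.05 (9.09%, against 19.6%). The 2 populations did not overlap in 8 members that were higher in ISG+ DC (18.2%, against 23.9%) and 14 that were lower (31.8%, against 22.0%). The median was -0.09 when CD103+ DC1 replicate 3 was left out and -0.02 when Rag2-/- ISG+ DC replicate 2 was. With replicate 2 of the CD103+ DC1 left out, so that replicate 3 stood alone, 7 of 45 members were called (15.6%, against 14.6% of genes). There Psmd13 and Psme4 were higher and Psma3, Psma4, Psmd4, Psmd7 and Psme2 were lower, with the lone library assumed to vary like the other groups.

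**Figure D2:**
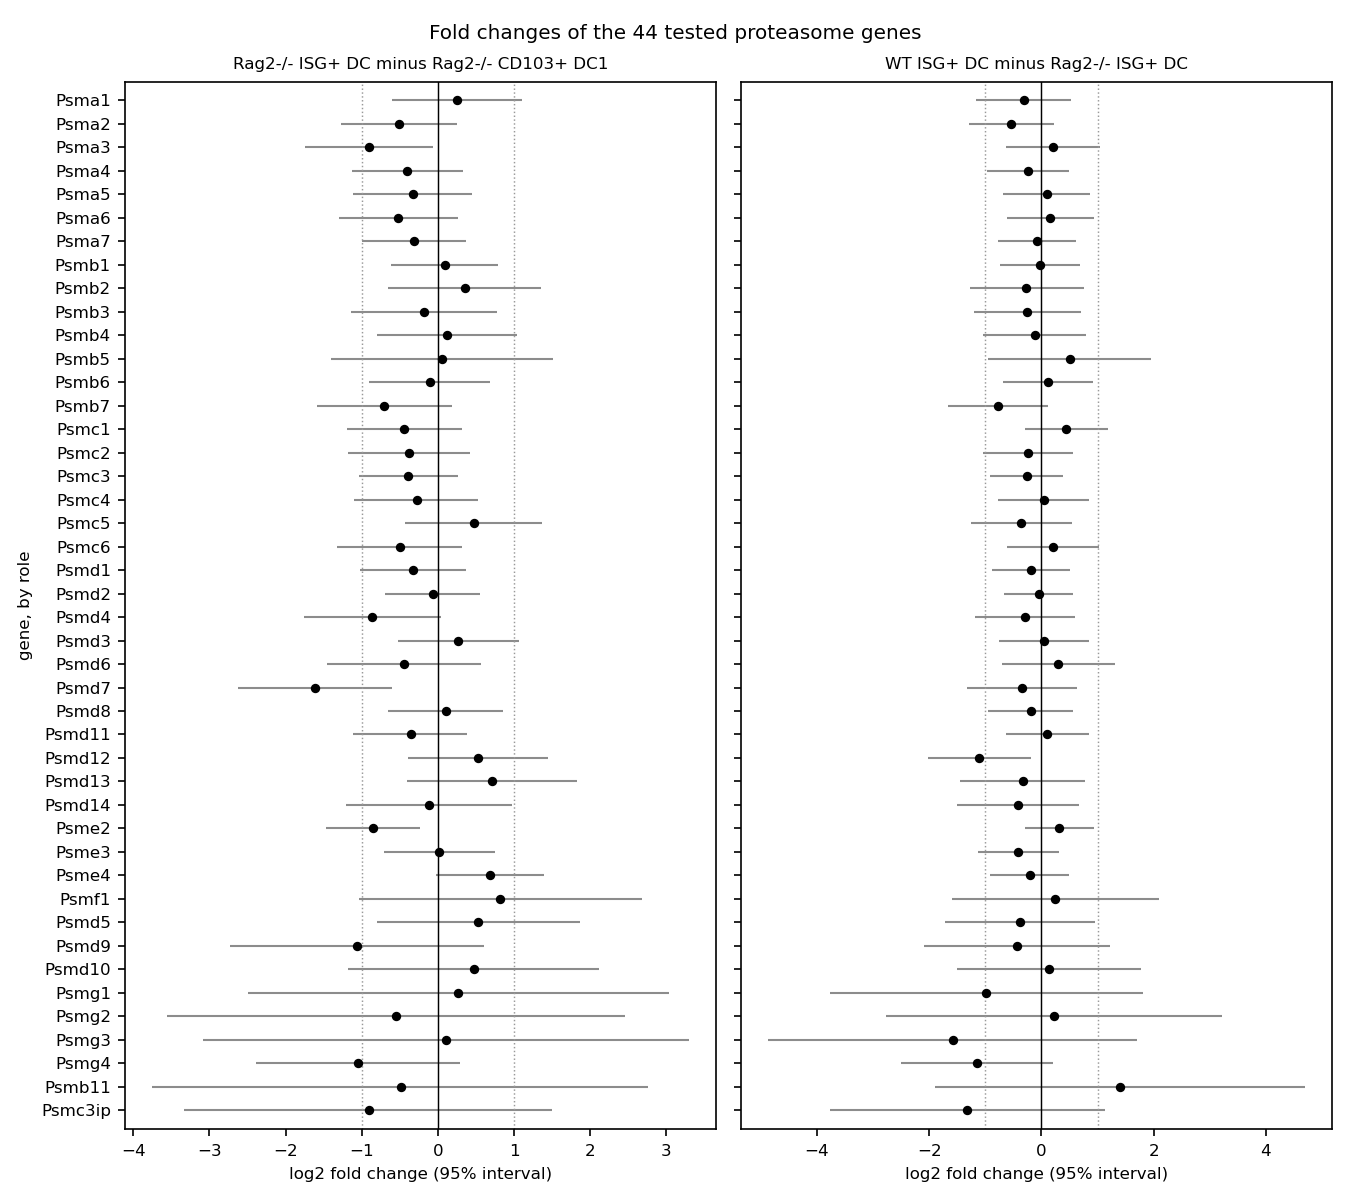
Log2 fold change of each of the 44 tested members with its 95% interval, for ISG+ DC against CD103+ DC1 in Rag2-/- hosts and for WT against Rag2-/- hosts in ISG+ DC. Most intervals cross 0, and none of these differences passed at an adjusted p under 0.05; Psmd7, with the lowest adjusted p between populations (0.0954), lies at -1.61.

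The intervals also bound what was not called. Between populations, the 95% interval lay within a 2-fold change either way for 5 members, Psmb1, Psmb6, Psmd2, Psmd8 and Psme3 (11.4%, against 8.99% of all genes). Between hosts it did so for 15 members (34.1%, against 12.5%): Psma4, Psma5, Psma6, Psma7, Psmb1, Psmb6, Psmc3, Psmc4, Psmd1, Psmd2, Psmd3, Psmd8, Psmd11, Psme2 and Psme4. For the other members a change of more than 2-fold lies inside the interval. As with the range over the libraries, the members lay at a higher level than the genes as a whole, so these shares are not at matched level.

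The alpha ring, whose N-terminal tails close the core, had a median log2 fold change of -0.40 between populations and -0.08 between hosts over its 7 subunits. Its summed level was 771 and 1125 CPM in CD103+ DC1, 632 and 756 CPM in Rag2-/- ISG+ DC, and 618 and 681 CPM in WT ISG+ DC. Psma3 was at 126 and 302 CPM in CD103+ DC1, 116 and 111 CPM in Rag2-/- ISG+ DC and 132 and 131 CPM in WT ISG+ DC. Only CD103+ DC1 replicate 3 stood far from the rest. Its log2 fold change between populations was -0.91 ± 0.38 (SE, edgeR adjusted p = 0.283), and -0.13 without that library. Psma2 was at 83.4 and 104 CPM, 60.6 and 70.9 CPM, and 44.0 and 46.7 CPM in the same order of groups, with no overlap between neighbouring groups, and its difference between hosts was -0.54 ± 0.34 (SE, edgeR adjusted p = 0.695).

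The beta ring showed the narrowest range of summed levels among the rings and cap, at 378 and 387 CPM in CD103+ DC1, 322 and 389 CPM in Rag2-/- ISG+ DC and 341 and 309 CPM in WT ISG+ DC. Psmb5, the chymotrypsin-like site, was at 23.0 and 12.0 CPM, 15.0 and 21.4 CPM, and 35.5 and 15.8 CPM. The groups overlapped, with log2 fold changes of 0.05 ± 0.66 between populations and 0.50 ± 0.66 between hosts (SE, edgeR adjusted p = 0.991 and 0.923); both signs turned when single libraries were left out. Psmb6, the caspase-like site, was at 61.3 and 65.4 CPM, 48.8 and 68.8 CPM, and 60.4 and 67.6 CPM, so the groups overlapped. Its 95% interval ran from -0.91 to 0.69 between populations and from -0.68 to 0.92 between hosts on the log2 scale. Psmb7, the trypsin-like site, was at 66.3 and 118 CPM in CD103+ DC1, 49.3 and 63.0 CPM in Rag2-/- ISG+ DC and 33.3 and 32.2 CPM in WT ISG+ DC. No 2 groups overlapped, but neither difference passed: -0.71 ± 0.40 between populations and -0.78 ± 0.40 between hosts (SE, edgeR adjusted p = 0.46 and 0.599). The former was -0.22 when CD103+ DC1 replicate 3 was left out and -1.07 when replicate 2 was.

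Among the counterparts of these sites in the immunoproteasome, only Psmb9 was called between populations. Psmb9, which replaces Psmb6, was at 121 and 167 CPM in CD103+ DC1, 41.4 and 41.6 CPM in Rag2-/- ISG+ DC and 48.0 and 41.1 CPM in WT ISG+ DC. It fell between populations by 1.79 on the log2 scale (SE 0.35, edgeR adjusted p = 0.0163), and the fold change stayed at -1.79 without either Rag2-/- ISG+ DC library, where it no longer passed (edgeR adjusted p = 0.121 and 0.143). Psmb8, which replaces Psmb5, was at 541 and 534 CPM, 345 and 432 CPM, and 393 and 422 CPM, with a log2 fold change of -0.47 between populations (edgeR adjusted p = 0.389). Psmb10, which replaces Psmb7, was at 40.0 and 31.9 CPM, 53.3 and 58.5 CPM, and 61.5 and 56.7 CPM, with a log2 fold change of 0.64 (edgeR adjusted p = 0.493).

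A ratio of counts within a library needs no scaling between libraries. The log2 ratio of Psmb6 to Psmb9 counts was -0.98 and -1.35 in CD103+ DC1, 0.24 and 0.73 in Rag2-/- ISG+ DC, and 0.33 and 0.72 in WT ISG+ DC. It was higher in both ISG+ DC groups without overlap, by 1.65 between populations (1.40 to 1.89 with 1 library left out), and differed by 0.04 between hosts, where the sign turned when single libraries were left out. The log2 ratio of Psmb7 to Psmb10 went the other way, at 0.73 and 1.88, -0.11 and 0.11, and -0.88 and -0.81. It was lower by 1.31 between populations and by 0.84 between hosts, again without overlap. The difference between populations was -0.73 when CD103+ DC1 replicate 3 was left out and -1.88 when replicate 2 was. The log2 ratio of Psmb5 to Psmb8 was -4.55 and -5.47, -4.52 and -4.33, and -3.47 and -4.74. It differed by 0.58 between populations without overlap and by 0.33 between hosts with overlap. The former was 0.12 when CD103+ DC1 replicate 3 was left out and 1.04 when replicate 2 was, and the latter turned to -0.31 when WT ISG+ DC replicate 1 was left out and was 0.96 when replicate 2 was. With 2 libraries against 2 the smallest two-sided exact permutation p is 0.333, so that test cannot pass for any ratio, and no other test was run on them. On a scale of CPM per kilobase of the annotated principal transcript, Psmb8 exceeded Psmb5 by 17 times in CD103+ DC1, 11.8 times in Rag2-/- ISG+ DC and 8.78 times in WT ISG+ DC. Single libraries gave 13 and 24.6 times, 12.7 and 11.2 times, and 6.11 and 14.8 times, so the groups of ISG+ DC overlapped. On that scale Psmb9 stood at 1.34, 0.416 and 0.411 times Psmb6, and Psmb10 at 0.346, 0.881 and 1.59 times Psmb7. The transcript lengths came from an annotation of another build than the counts, which touches these levels and not the ratios between libraries.

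**Figure D3:**
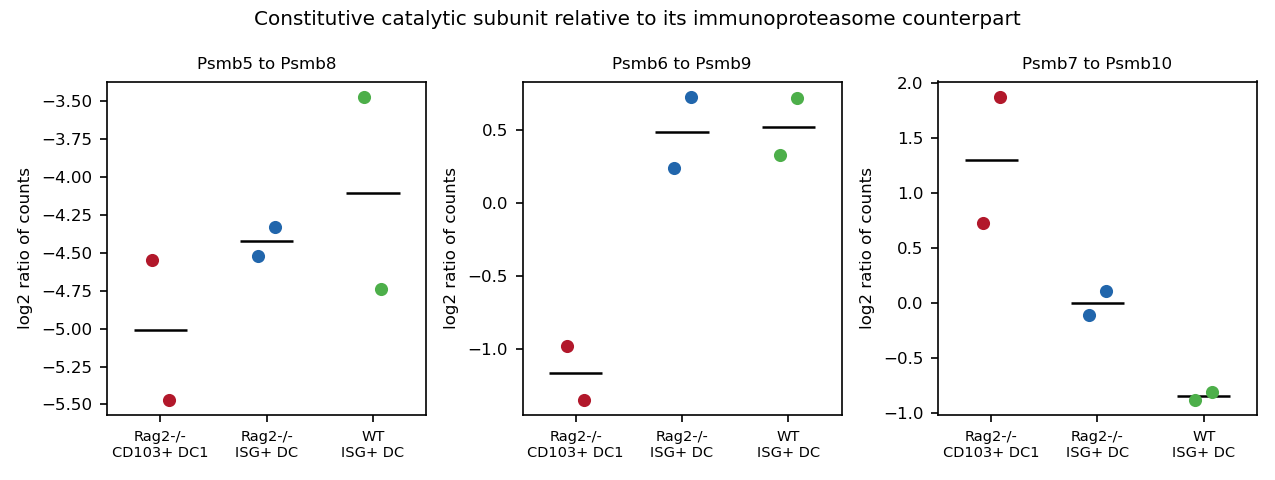
Log2 ratio of the counts of each constitutive catalytic subunit to those of its immunoproteasome counterpart, 1 point a library, with a line at the mean of each group of 2. Psmb6 to Psmb9 is higher in the ISG+ DC groups, Psmb7 to Psmb10 is lower, and Psmb5 to Psmb8 lies between -5.47 and -3.47.

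The base of the cap holds the ATPases Psmc1 to Psmc6 and the subunits Psmd1, Psmd2 and Psmd4. Its summed level was 1142 and 1641 CPM in CD103+ DC1, 983 and 1157 CPM in Rag2-/- ISG+ DC, and 1009 and 963 CPM in WT ISG+ DC, and its median log2 fold changes were -0.38 between populations and -0.19 between hosts. Psmd4, the ubiquitin receptor whose promoter is shown above, was at 181 and 501 CPM, 186 and 190 CPM, and 170 and 138 CPM. CD103+ DC1 replicate 3 alone was high, and the other 5 libraries lay between 138 and 190 CPM. Its log2 fold change between populations was -0.86 ± 0.41 (SE, edgeR adjusted p = 0.359) and turned to 0.07 without that library. Psmc1, an ATPase, was at 80.8 and 93.2 CPM, 56.7 and 71.5 CPM, and 100 and 74.4 CPM, and its difference between hosts was 0.44 ± 0.34 (SE, edgeR adjusted p = 0.762).

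The lid removes and recycles ubiquitin through Psmd14. Its summed level was 561 and 910 CPM in CD103+ DC1, 542 and 615 CPM in Rag2-/- ISG+ DC, and 465 and 534 CPM in WT ISG+ DC, and its median log2 fold changes were -0.01 between populations and -0.26 between hosts. Psmd7, the partner of Psmd14 in its catalytic dimer, was at 129 and 408 CPM in CD103+ DC1, 87.5 and 88.6 CPM in Rag2-/- ISG+ DC, and 66.3 and 72.5 CPM in WT ISG+ DC. The 3 groups did not overlap, and CD103+ DC1 replicate 3 lay far above the other replicate. The log2 fold change between populations was -1.61 ± 0.45 (SE, 95% interval -2.62 to -0.60, edgeR adjusted p = 0.0954). It passed in DESeq2 (-1.67, adjusted p = 0.0148), with ISG+ DC of both hosts pooled (-1.78, edgeR adjusted p = 0.014) and without a low-count filter (-1.60, edgeR adjusted p = 0.000112). It did not pass with the 2 populations fitted alone (-1.62, edgeR adjusted p = 0.175) or under other scalings between libraries (edgeR adjusted p = 0.0875 to 0.0982). Without CD103+ DC1 replicate 3 it was -0.54 (edgeR adjusted p = 0.637), and without replicate 2 it was -2.22 (edgeR adjusted p = 7.52e-06). Psmd12, a scaffold subunit, was at 45.3 and 38.7 CPM, 53.3 and 67.5 CPM, and 32.0 and 24.2 CPM. Its difference between hosts was -1.11 ± 0.42 (SE, edgeR adjusted p = 0.363), the only member under an unadjusted p of 0.05 between hosts.

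**Figure D4:**
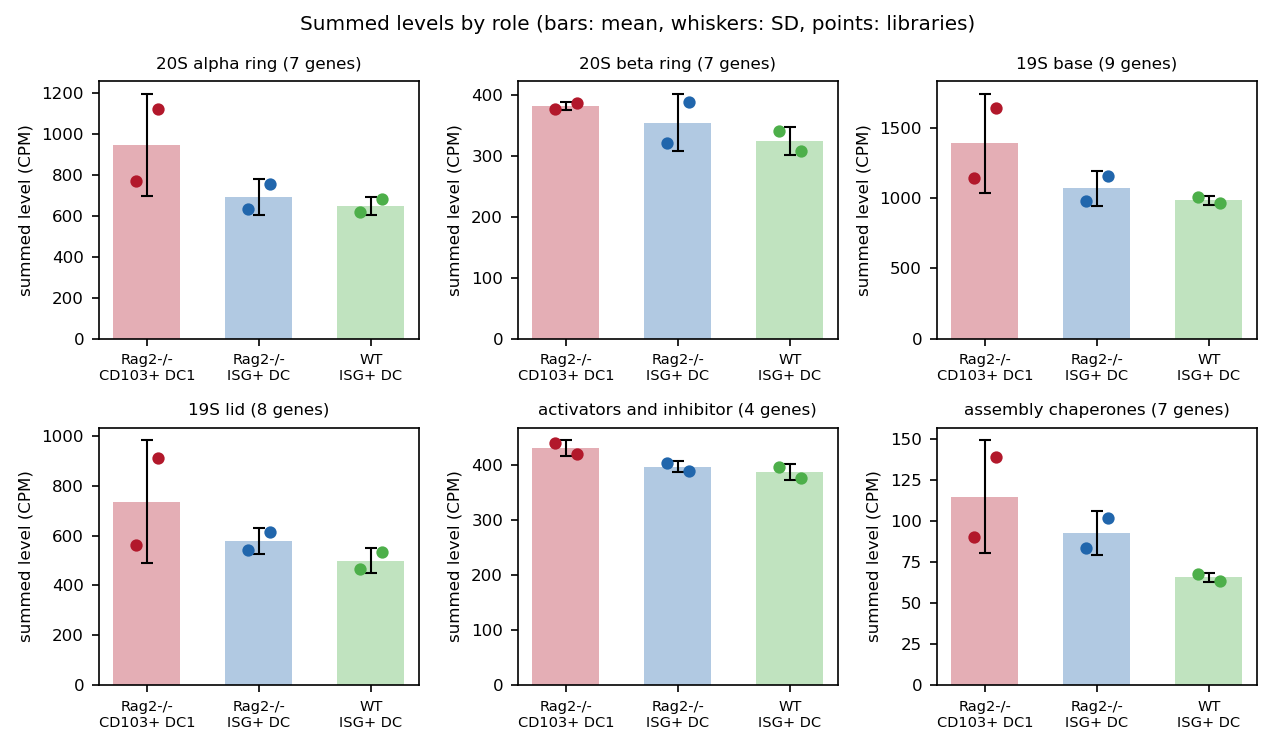
Summed level of the members of each role group in each library (CPM, TMM-scaled), 1 point a library, with bars at the mean and whiskers at the SD of each group of 2. The activators range over 1.17 times and the beta ring over 1.26 times, while CD103+ DC1 replicate 3 lies highest in the alpha ring, base, lid and chaperones.

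The activators and the inhibitor dock on the ends of the core. Psme2, which forms the interferon-inducible PA28 ring with the left-out Psme1, was at 201 and 264 CPM in CD103+ DC1, 146 and 113 CPM in Rag2-/- ISG+ DC, and 165 and 157 CPM in WT ISG+ DC. CD103+ DC1 was the highest group without overlap. The log2 fold change between populations was -0.85 ± 0.28 (SE, edgeR adjusted p = 0.162), and DESeq2 gave -0.89 (adjusted p = 0.0475). Psme1 was at 979 and 1574 CPM, 510 and 537 CPM, and 510 and 530 CPM. It fell between populations by 1.29 (log2, edgeR adjusted p = 0.0222), but did not pass with the 2 populations fitted alone (-1.29, edgeR adjusted p = 0.0804) or without either Rag2-/- ISG+ DC library (-1.25 and -1.32, edgeR adjusted p = 0.14 and 0.136). Psme4, the nuclear activator PA200, was at 126 and 73.7 CPM, 165 and 157 CPM, and 139 and 139 CPM. It was higher in ISG+ DC without overlap, with a log2 fold change of 0.69 ± 0.32 (SE, edgeR adjusted p = 0.344). That was 0.38 when CD103+ DC1 replicate 3 was left out (edgeR adjusted p = 0.767) and 1.12 when replicate 2 was (edgeR adjusted p = 0.0148). Psme3, the nuclear activator PA28 gamma, was at 101 and 78.4 CPM, 79.0 and 103 CPM, and 66.0 and 71.2 CPM, with log2 fold changes of 0.02 ± 0.33 and -0.41 ± 0.33 (SE, edgeR adjusted p = 0.994 and 0.791). Psmf1, an inhibitor of the core in vitro, was at 13.1 and 4.28 CPM, 13.9 and 17.1 CPM, and 26.7 and 9.98 CPM, with log2 fold changes of 0.82 ± 0.84 and 0.25 ± 0.83 (SE, edgeR adjusted p = 0.742 and 0.983). Between populations Psmf1 was at 0.26 when CD103+ DC1 replicate 3 was left out and 1.85 when replicate 2 was.

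The assembly chaperones were low and variable. Psmg1 and Psmg2, which start the alpha ring together, were at 1.99 and 15.6 CPM and 8.71 and 4.11 CPM in CD103+ DC1, 3.34 and 17.6 CPM and 7.30 and 1.46 CPM in Rag2-/- ISG+ DC, and 6.52 and 4.09 CPM and 3.66 and 6.59 CPM in WT ISG+ DC. The replicates of 1 group differed by up to 7.81-fold for Psmg1. Psmg3 was at 7.71 and 2.74 CPM, 3.71 and 7.58 CPM, and 2.06 and 1.70 CPM in the same order. Its partner Psmg4 was at 24.7 and 60.0 CPM, 18.3 and 22.5 CPM, and 10.8 and 7.49 CPM. The 3 groups of Psmg4 did not overlap, but its log2 fold changes of -1.05 ± 0.60 between populations and -1.15 ± 0.61 between hosts (SE) did not pass (edgeR adjusted p = 0.47 and 0.61). The former was -0.26 when CD103+ DC1 replicate 3 was left out. Of the chaperones of the base, Psmd5 was at 25.2 and 11.1 CPM, 25.7 and 27.1 CPM, and 18.9 and 21.7 CPM. Psmd9 was at 14.5 and 33.2 CPM, 9.82 and 13.0 CPM, and 9.92 and 6.89 CPM, with fractional values in 5 libraries. Psmd10 was at 7.58 and 12.7 CPM, 15.1 and 12.9 CPM, and 15.7 and 15.1 CPM. Summed, the chaperones were at 90.4 and 139 CPM, 83.3 and 102 CPM, and 67.6 and 63.5 CPM.

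Psmb11 was at 5.39 and 1.54 CPM, 2.83 and 2.11 CPM, and 5.72 and 7.39 CPM, with log2 fold changes of -0.49 and 1.40 (edgeR adjusted p = 0.931 and 0.881). Its value was not a whole number in any of the 6 libraries, as RSEM gives where reads fit more than 1 gene, so its level is uncertain. Psmc3ip was at 9.38 and 25.4 CPM, 12.5 and 5.91 CPM, and 0.983 and 6.39 CPM, the widest range of any member (25.8-fold), and no difference passed.

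Between hosts no member passed, and the member with the lowest adjusted p had 0.363, while 73 of 13223 genes passed (0.552%). The members' median log2 fold change, WT against Rag2-/-, was -0.20, against -0.03 over all genes, with 28 of 44 under 0 (63.6%, against 51.5%). At an unadjusted p under 0.05 there was 1 member (2.27%, against 9.88%). DESeq2 called 0 members at an adjusted p under 0.05, where 4.24% of genes were called, and 1 at an unadjusted p under 0.05 (2.27%, against 13.3%). The hosts did not overlap in 5 members that were higher in WT (11.4%, against 21.4%) and 16 that were lower (36.4%, against 23.1%). Psma2, Psmb7, Psmd7 and Psmg4 had no overlap between any groups in the order CD103+ DC1, Rag2-/- ISG+ DC, WT ISG+ DC (4 of 44, against 4.99% of all genes with that order), and 0 members had the reverse order (5.97% of all genes).

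Of 42 genes that work with the proteasome outside the symbol rule, listed as receptors and assembly factors, transcription factors and their processing, the p97 complex and ubiquitin genes, 41 were in the table and tested. At an adjusted p under 0.05, edgeR called 0 higher and 0 lower between populations, where it called 3.69% of all genes. Between hosts it called 0 higher and 0 lower, against 0.552% of all genes. Their median log2 fold change was 0.14 between populations and -0.01 between hosts. The lists differed between populations: the median was 0.81 over the 7 transcription factor and processing genes, 0.14 over the 17 receptors and assembly factors, -0.12 over the 11 p97 genes and -0.32 over the 6 ubiquitin genes. All 7 genes of the first list were above 0, where 50.7% of all genes were under 0. Those with the smallest p were Ddi2, the protease that processes Nfe2l1, at 1.03, Nfe2l2 at 0.83 and Stat3 at 0.77. Each was higher without overlap, as were 23.9% of all genes, and none was called. Their lowest library was CD103+ DC1 replicate 3, at 72.5, 52.2 and 178 CPM, against 120, 65.8 and 334 CPM in replicate 2. Pomp, which matures the core, was at 141 and 190 CPM in CD103+ DC1, 89.1 and 89.2 CPM in Rag2-/- ISG+ DC, and 77.7 and 76.0 CPM in WT ISG+ DC. Its log2 fold change between populations was -0.89 (edgeR adjusted p = 0.167), and it passed in DESeq2 (adjusted p = 0.0456) and with ISG+ DC of both hosts pooled (edgeR adjusted p = 0.0333). It did not pass with the 2 populations fitted alone (-0.90, edgeR adjusted p = 0.265), and was -0.64 without CD103+ DC1 replicate 3. Adrm1, a ubiquitin receptor, was at 82.9 and 17.5 CPM, 84.8 and 59.8 CPM, and 74.6 and 64.3 CPM. Shfm1, now Sem1, a small subunit of the lid outside the symbol rule, was at 152 and 240 CPM, 127 and 158 CPM, and 149 and 177 CPM. Nfe2l1 was at 163 and 167 CPM, 189 and 179 CPM, and 148 and 137 CPM, with log2 fold changes of 0.15 and -0.36 (edgeR adjusted p = 0.869 and 0.734).

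Members with a promoter motif can be set beside those without one. The 5 members with the antioxidant motif had a median log2 fold change of -0.11 between populations and 0.12 between hosts, and the 32 without it -0.30 and -0.20. The 3 members with the interferon-stimulated motif had -0.86 and -0.29, and the 34 without it -0.20 and -0.15. These are descriptions of few genes. All 3 members with the interferon-stimulated motif had their highest value in CD103+ DC1 replicate 3, as did 43.2% of the tested members. Their median of -0.86 is the value of Psmd4, which turned to 0.07 without that library, as given above.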

How the data were processed

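Per the labels' protocols, cDNA libraries were prepared with the Clontech SMARTer stranded total RNA kit for low input and sequenced on a NextSeq, while the molecule field names polyA RNA; this was not reconciled. The authors deposited estimated counts per gene symbol, not normalized. Bowtie 1.2.3, RSEM 1.3.1 and the build mm9 are named in the submitters' processing notes. The sources used here give no annotation or strand setting, so overlapping genes cannot be told apart, and RSEM shares reads between similar genes (16.1% of all values, and 30 of 270 member values, were not whole).

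Estimated counts were rounded and fitted with edgeR 4.0.16 in R 4.3.3: filterByExpr (13223 genes), TMM scaling, one quasi-likelihood fit over 6 libraries in 3 groups, two-sided tests, Benjamini-Hochberg adjustment over all genes and a threshold of 0.05. Residual degrees of freedom were 3, the prior added 7.34, and the biological coefficient of variation was 0.703. DESeq2 1.42.0 was an alternative, with other scalings, no filter, the 2 compared groups alone, ISG+ DC of both hosts pooled and each library left out. Ratios within a library added 0.5 to each count. The procedure was also run on simulated counts, with planted changes larger than the fold change of any member. That run does not show whether differences as small as those of the members would be called. The members and lists were chosen with earlier results of these data known. Values are given for the catalytic sites, activators, chaperones, members outside the general proteasome and the member of each role with the smallest p; any other was chosen after its values were seen. Intervals of zero counts cover counting error only, since the labels name no molecular identifiers.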

Additional observations from a re-analysis of the deposited data

How the results depend on the processing

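Depth limits low members: Psma8 and the chaperones carry few counts, and CD103+ DC1 replicate 3 is the shallowest library. Between populations 1112 genes were called by DESeq2, 1087 without a filter, 297 with the 2 groups alone and 1157 with ISG+ DC of both hosts, and 278 to 2068 with 1 library left out. The members called lower were 2, 1, 0 and 1 in those settings, and 0 to 5 (higher 0 to 2) with 1 library left out. The median log2 fold change of the members then ran from -0.39 to -0.02. With DESeq2, 4.55% of the tested members were called, against 8.56% of genes. The shares of members called were 2.22% without a filter, 0% with the 2 groups alone and 2.27% with ISG+ DC of both hosts. For these settings no share of all genes is given, so the member shares have no background to be set against. Between hosts 564, 555 and 444 genes were called by DESeq2, without a filter and with the 2 groups alone, and 27 to 198 with 1 library left out, where the members' median ran from -0.23 to -0.04. With 1 library left out, log2 ratios of summed levels between populations ran from -0.70 to -0.15 for the alpha ring, -0.25 to 0.02 for the beta ring, -0.62 to -0.09 for the base, -0.65 to 0.05 for the lid and -0.59 to 0.04 for the chaperones; for hosts the beta ring ran from -0.26 to 0.01. The activators moved to -0.16 between populations with upper-quartile factors and to -0.12 between hosts with library totals. The difference in Psmb7 to Psmb10 ran from -1.88 to -0.73.

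Signs turned between populations, with 1 library left out, for Psmd4 (-1.42 to 0.07), Psmb5 (-0.32 to 0.59), Psmb6 (-0.38 to 0.12) and Psme3 (-0.18 to 0.21). Psme3 was -0.02 with DESeq2 and RLE factors, -0.03 with upper-quartile factors and -0.18 with both hosts, where Nfe2l1 was -0.03. Between hosts they turned for Psmb5 (-0.21 to 0.96), Psmb6 (-0.11 to 0.39), Psmf1 (-0.63 to 0.78), Psmb8 (-0.09 to 0.24, and -0.01 with library totals), Psmb9 (-0.01 to 0.20) and Psme1 (-0.05 to 0.03, and 0.01 with DESeq2 and RLE factors). The cause was not tested.

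Deviations of same-numbered Rag2-/- libraries from their group means correlated at 0.0162 over 13223 genes. A correlation over all tested genes cannot show whether part of them shifted together by number, and whether the numbers mark 1 experiment is unknown. With the replicate block, fitted on the 2 compared populations alone, 659 genes and 1 member, Psmd7 (log2 fold change -1.39, edgeR adjusted p = 0.0412), were called. Without the block the same libraries gave 297 genes and 0 members (Psmd7 -1.62, edgeR adjusted p = 0.175). A replicate block between hosts, which share number 2 alone, was added after seeing the data, over all 6 libraries. It called 258 genes and 0 members, with a members' median of -0.07, and turned the sign of Psmb5 (-0.33), Psmf1 (-1.02), Psmb10 (-0.03) and Psme1 (0.20).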
